A study of Mus musculus with 4 samples.

Results

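A set of 10 genes of the interferon pathway was followed in mammary tumor cell lines with and without the JNK protein kinases: the ligand gene Ifnb1, the receptor genes Ifnar1, Ifnar2, Ifngr1, Ifngr2 and Il10rb, the kinase genes Jak1, Jak2 and Tyk2, and the inhibitor gene Socs1. They were chosen by symbol, as 10 of the 38713 genes in the expression table, to ask whether ligand or receptor expression differed between the genotypes. Each library came from a cell line grown out of a mammary tumor of a C57BL/6 mouse. The JNK_WT lines (2 libraries, replicates 1 and 2) carried Wap-Cre and floxed Trp53 and are labelled p53-/-. The JNK_KO lines (2 libraries, replicates 1 and 3) also carried floxed Mapk8 and Mapk9, the genes of JNK1 and JNK2, and are labelled p53-/- JNK-/-. By these labels all 4 libraries share the loss of p53. Wap-Cre acts in luminal mammary epithelium upon lactation, each line was represented by 1 library, and p-values measure only the spread between these lines.

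Type I interferons such as interferon-β bind a receptor made of IFNAR1 and IFNAR2, and interferon-γ binds IFNGR1 and IFNGR2. The receptor chains have no kinase activity of their own and carry JAK1, JAK2 or TYK2, which phosphorylate STAT proteins that then switch on interferon-stimulated genes. SOCS1 binds the JAK kinases and shuts the signal off, and its gene is itself induced by interferon.

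Expression was given as FPKM, fragment counts scaled to transcript length and sequencing depth, a unit in which levels of different genes can be compared. Differences between genotypes are given on the log2(FPKM + 1) scale as JNK_KO minus JNK_WT, with the standard error (SE) and unadjusted 95% interval of limma, and folds are on the same scale. Calls required an absolute difference over 0.75 together with a Benjamini-Hochberg adjusted p under 0.05. The genes targeted in JNK_KO alone were lower in the lines so labelled: Mapk8 was at 23.9 and 19.1 FPKM in JNK_WT and at 4.30 and 4.27 FPKM in JNK_KO, and Mapk9 at 29.7 and 24.3 against 12.6 and 8.66 FPKM. Trp53, targeted in all lines, was at 1.55 and 4.15 FPKM in JNK_WT and at 5.72 and 4.28 FPKM in JNK_KO, a difference of 0.72 (SE 0.46, limma adjusted p = 0.886), and a value for the whole gene does not tell the floxed exons from the rest. The read number of the libraries was not recoverable from FPKM, and the steps of low values placed their relative depth between 1 and 1.41 times that of JNK_KO replicate 1. The epithelial markers Krt8, Krt18, Epcam and Cdh1 were at 58.4 FPKM or more in all 4 libraries. Their summed level was 2992 and 2061 FPKM in JNK_WT and 872 and 1728 FPKM in JNK_KO. Of 11 leukocyte markers, 8 were under 1 FPKM in all libraries, with the pan-leukocyte gene Ptprc at 0.0134 FPKM or less, and the summed level was 34.0 and 237 FPKM in JNK_WT and 128 and 150 FPKM in JNK_KO, most of it Cd14 in 3 libraries and Cd68 (19.95 FPKM) in JNK_WT replicate 1. Of 7 fibroblast markers, Dcn (0.430 and 0.389 against 79.7 and 162 FPKM) and Pdgfra (0.325 and 0.183 against 24.7 and 7.82 FPKM) had both JNK_KO libraries above both JNK_WT libraries, as had Pdgfrb (0.0404 and 0.194 against 2.17 and 2.99 FPKM). The groups overlapped for the collagen gene Col1a2 (10.3 and 0.374 against 0.698 and 2.56 FPKM), and the defining collagen gene Col1a1 was under 1 FPKM in all libraries. Col3a1 also overlapped (0.0234 and 0.141 against 0.113 and 1.33 FPKM), and Lum was at 0.0084 FPKM or less in all libraries. Of the 4 fibroblast markers tested, 3 were higher in both JNK_KO libraries, beside 18.3% of all genes tested. The summed fibroblast level was 11.7 and 1.66 FPKM in JNK_WT and 108 and 177 FPKM in JNK_KO. Most of it was Dcn in JNK_KO and Col1a2 in JNK_WT replicate 1. The 4 endothelial markers stayed under 0.5 FPKM. The part of these marker differences in the results below was not tested. In bulk RNA, fewer cells of a type and less RNA per cell cannot be told apart.

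The receptor and kinase genes were mostly higher in the JNK_KO lines, and none of the differences passed the test. Of the 10 genes, 9 reached 1 FPKM in at least 2 libraries and were tested, and each of the 9 was at 1 FPKM or more in all 4 libraries. limma called 0 of them, against 0 (0%) of 12998 genes tested in all, of which 992 had an unadjusted p under 0.05. The JNK_KO libraries were each higher than either JNK_WT library for 8 of the 9, namely all 5 receptor genes, Jak1, Jak2 and Socs1, while 18.3% of all genes tested were placed so. None of the 9 had both JNK_KO libraries below both JNK_WT libraries, which held for 16.7% of all genes. An unadjusted limma p under 0.05 in the direction of higher expression in JNK_KO was reached by 5 of the 9 (Ifnar2, Ifngr2, Il10rb, Jak1 and Socs1) and by 4.75% of all genes. In the opposite direction it was reached by 0 of the 9 and by 2.89% of all genes. The median difference of the 9 genes was 0.95, and that of all genes tested was 0.01.

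**Figure D1:**
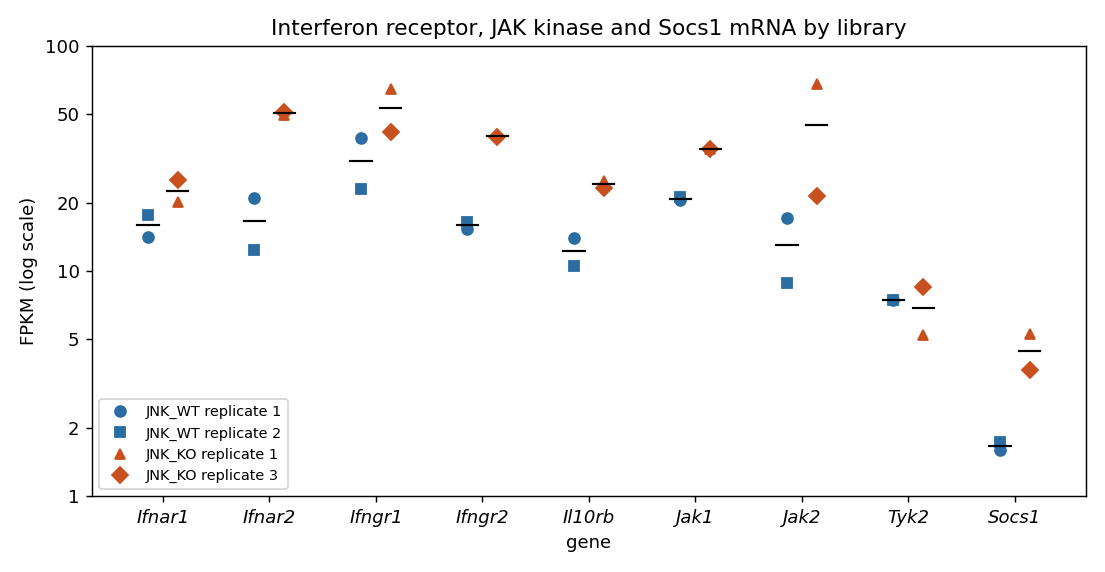
Expression of the 9 tested genes in FPKM (log axis) in each library, JNK_WT in blue and JNK_KO in orange, with the group mean as a black bar. For 8 genes both JNK_KO points lie above both JNK_WT points, and for Tyk2 the JNK_KO points of 5.18 and 8.52 FPKM lie on either side of JNK_WT.

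The sequence before the start of 4 of the genes is shown because it holds a match to the binding motif of a factor in this pathway. RefSeq promoter entries (GRCm38.p6) were found for 9 of the 10 genes, all but Il10rb, and the 250 bases before the annotated start were searched on both strands for 4 motifs. These were the interferon-stimulated response element (ISRE, GAAANNGAAA) bound by IRF proteins, the gamma-activated site (GAS, TTCNNNGAA) bound by STAT dimers, the κB site (GGGANNTTCC) of NF-κB, and the AP-1 site (TGANTCA) bound by JUN, a substrate of JNK. The same windows of 32851 promoters held an ISRE match in 2.98%, a GAS match in 7.02%, a κB match in 1.21% and an AP-1 match in 6.75%. Matches are in capitals, with position -1 just before the RefSeq start, which for some genes differs from the GENCODE start used for the gene positions in the text. A match describes the letters and not a bound site.
Ifnb1, chr4:88522795-88523044 (- strand): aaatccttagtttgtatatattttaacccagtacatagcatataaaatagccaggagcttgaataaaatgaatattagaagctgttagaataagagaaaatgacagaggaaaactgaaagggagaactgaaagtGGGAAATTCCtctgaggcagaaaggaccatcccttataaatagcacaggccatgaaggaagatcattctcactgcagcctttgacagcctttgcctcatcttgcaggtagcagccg
Ifnar2, chr16:91372533-91372782 (+ strand): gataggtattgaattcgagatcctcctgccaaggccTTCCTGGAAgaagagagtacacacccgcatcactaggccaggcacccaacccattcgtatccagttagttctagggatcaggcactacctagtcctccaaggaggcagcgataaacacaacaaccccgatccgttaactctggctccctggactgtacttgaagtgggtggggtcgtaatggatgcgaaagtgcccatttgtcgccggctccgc
Ifngr2, chr16:91546809-91547058 (+ strand): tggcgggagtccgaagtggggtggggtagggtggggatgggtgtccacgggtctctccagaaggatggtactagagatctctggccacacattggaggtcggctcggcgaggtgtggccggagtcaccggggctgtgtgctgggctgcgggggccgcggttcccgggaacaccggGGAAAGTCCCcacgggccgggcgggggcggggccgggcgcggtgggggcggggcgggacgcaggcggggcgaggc
Socs1, chr16:10785537-10785786 (- strand): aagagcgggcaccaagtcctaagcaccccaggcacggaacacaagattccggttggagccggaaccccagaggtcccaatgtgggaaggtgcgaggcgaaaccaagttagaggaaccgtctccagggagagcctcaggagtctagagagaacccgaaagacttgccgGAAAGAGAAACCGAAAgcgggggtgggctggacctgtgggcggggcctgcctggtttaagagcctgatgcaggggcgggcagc
Ifnb1 held a κB match at -116 to -107, within the stretch known as the virus-inducible enhancer of this gene. Ifnar2 held a GAS match at -214 to -206 and Ifngr2 a κB match on the opposite strand at -75 to -66. Socs1 held a pair of ISRE matches at -83 to -74 and -77 to -68, which share 4 bases. None of the 4 motifs matched in the windows of Ifnar1, Ifngr1, Jak1, Jak2 and Tyk2, and the AP-1 letters were found in none of the 9.

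Ifnb1, which encodes interferon-β, was close to the limit of detection in every line. It was listed at 0 FPKM in JNK_WT replicate 1, at 0.0516 FPKM in JNK_WT replicate 2, at 0.260 FPKM in JNK_KO replicate 1 and at 0.0921 FPKM in JNK_KO replicate 3. Both JNK_KO values were above both JNK_WT values, but all 4 were under the filter of 1 FPKM, so Ifnb1 was not tested. Multiplied by relative depth, the values above 0 stood in a ratio of 1 to 3.97 to 1.97, close to whole numbers, so only a few reads lie behind each. Without the filter the limma difference was 0.19 (SE 0.09, adjusted p = 1). The gene (ENSMUSG00000048806, chr4:88522025-88522774, GRCm38, - strand) has an exon length of 750 bases.

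No other interferon gene was detected at a higher level. The list held 21 type I, II and III interferon genes, of which 19 were in the table, and 16 of the 19 were at 0 FPKM in all 4 libraries, among them Ifng. Besides Ifnb1, Ifne did not exceed 0.0346 FPKM and Ifnz did not exceed 0.0672 FPKM. The highest value of any interferon gene in any library was the 0.260 FPKM of Ifnb1 in JNK_KO replicate 1. None could be tested.

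The type I receptor genes were both higher in JNK_KO, Ifnar2 by more than Ifnar1. Ifnar2, which encodes the chain that binds interferon with high affinity, was at 21.1 and 12.4 FPKM in JNK_WT and at 49.3 and 51.1 FPKM in JNK_KO. Both JNK_KO libraries stood close together and well above JNK_WT, with the 2 JNK_WT libraries further apart from each other than the JNK_KO libraries. The difference was 1.57 (SE 0.33, 95% interval 0.69 to 2.46), or 2.98-fold, with an adjusted limma p of 0.349. Ifnar1, the other chain of this receptor, was at 14.2 and 17.7 FPKM in JNK_WT and at 20.2 and 25.4 FPKM in JNK_KO. The groups did not overlap, but the gap between the nearest libraries of the groups (0.18 on the log2 scale) was narrower than the gaps within JNK_WT (0.30) and within JNK_KO (0.32). The Ifnar1 difference was 0.49 (SE 0.28, 95% interval -0.26 to 1.24, limma adjusted p = 0.854). The ratio of Ifnar2 to Ifnar1 FPKM was 1.49 and 0.700 in JNK_WT and 2.44 and 2.02 in JNK_KO, so that Ifnar2 was above Ifnar1 in 3 of 4 libraries, all but JNK_WT replicate 2.

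Of the type II receptor genes, Ifngr2 separated the genotypes cleanly and Ifngr1 did so narrowly. Ifngr2, whose product carries JAK2, was at 15.5 and 16.5 FPKM in JNK_WT and at 40.2 and 39.4 FPKM in JNK_KO. The gap between the groups (1.21 on the log2 scale) was far wider than the gaps within JNK_WT (0.09) and JNK_KO (0.03). The difference of 1.27 (SE 0.23, 95% interval 0.65 to 1.88), or 2.40-fold, had an adjusted limma p of 0.290, the lowest of the 9 genes. Ifngr1, the chain that binds interferon-γ and carries JAK1, was at 38.9 and 23.0 FPKM in JNK_WT and at 64.3 and 41.5 FPKM in JNK_KO. The lower JNK_KO library was only just above the higher JNK_WT library, a gap of 0.09 on the log2 scale against 0.73 and 0.62 within the groups. The Ifngr1 difference was 0.77 (SE 0.39, 95% interval -0.27 to 1.80, limma adjusted p = 0.801). Ifngr1 exceeded Ifngr2 in all 4 libraries, by 2.52 and 1.40 times in JNK_WT and by 1.60 and 1.06 times in JNK_KO.

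Il10rb, which encodes a chain shared by the receptors of interleukin-10, interleukin-22 and interferon-λ and carries TYK2, was at 13.97 and 10.5 FPKM in JNK_WT and at 25.2 and 23.4 FPKM in JNK_KO. The groups did not overlap, and the gap between them (0.71) was wider than those within JNK_WT (0.38) and JNK_KO (0.10). The difference was 0.95 (SE 0.28, 95% interval 0.21 to 1.69, limma adjusted p = 0.509). Of 7 further class II cytokine receptor genes, 3 could be tested and 0 were called. In both JNK_KO libraries 1 was higher and 1 lower, beside 18.3% and 16.7% of all genes tested. The median difference was -0.42, which was 0.70 without JNK_WT replicate 2 and 0.0061 with no filter on low values. Ifnlr1, the ligand-binding chain for interferon-λ and a partner of IL10RB, was at 3.60 and 3.81 FPKM in JNK_WT and at 4.47 and 12.4 FPKM in JNK_KO, a difference of 0.86 (0.22 without JNK_KO replicate 3). F3, the tissue factor that starts blood coagulation, was at 15.0 and 15.1 FPKM in JNK_WT and at 8.97 and 8.92 FPKM in JNK_KO, a difference of -0.69. For Il20rb the groups overlapped, with JNK_WT replicate 2 at 15.3 FPKM and the other libraries between 2.48 and 5.22 FPKM.

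Ifnar2, Il10rb, Ifnar1 and Ifngr2 lie next to each other on chromosome 16. The genes Ifnar2 (chr16:91372783-91405589), Il10rb (chr16:91406164-91425834), Ifnar1 (chr16:91485238-91507441) and Ifngr2 (chr16:91547072-91565623), all on the + strand of GRCm38, fall within 193 kb. Within 1 Mb of Ifnar2, 20 other genes were tested, with a median difference of 0.16 and a range of -0.27 to 1.12. The median over 391 other genes of the chromosome was 0.08. The highest of the 20 was Tmem50b, which lies next to Ifngr2, at 7.46 and 6.89 FPKM in JNK_WT and 15.5 and 18.2 FPKM in JNK_KO, a difference of 1.12. The next genes tested beyond it were Dnajc28 (0.01) and Gart (-0.05), and Paxbp1 (0.36) was the nearest on the other side of Ifnar2. Of the 20 genes, 3 besides Tmem50b had a difference above that of Ifnar1, and none one above that of Ifnar2 or Ifngr2. The gene model Gm21970 overlaps Ifnar2 and Il10rb on the same strand, and reads shared with it could be split between the models. It was at 2.27 and 2.10 FPKM in JNK_WT and 0.949 and 3.93 FPKM in JNK_KO, well under both receptor genes.

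**Figure D2:**
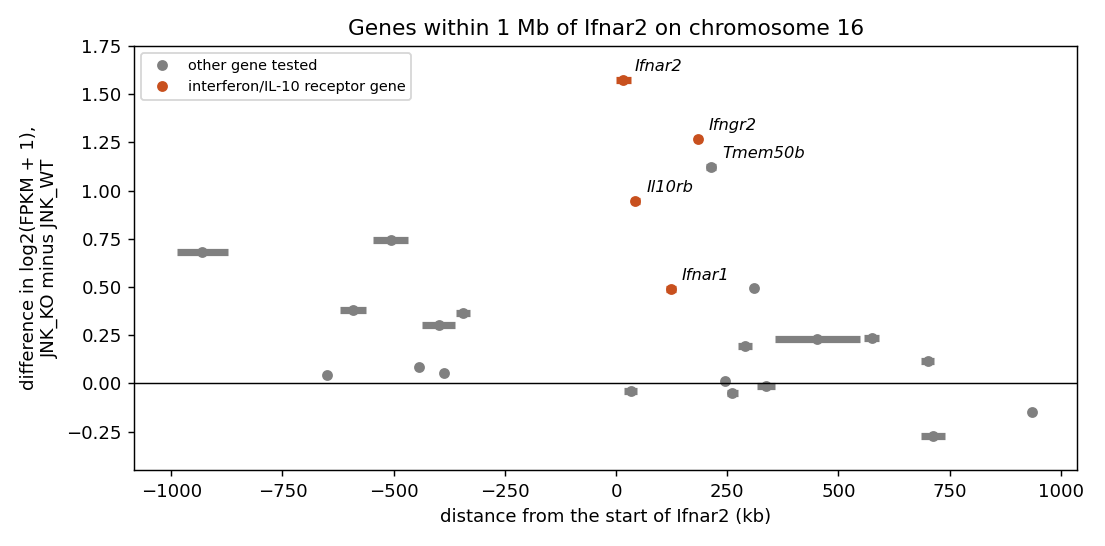
Difference between JNK_KO and JNK_WT (log2(FPKM + 1) scale) for the genes tested within 1 Mb of Ifnar2, against distance from the start of Ifnar2 in kb, with each gene's extent as a horizontal bar. The receptor genes in orange lie between 0.49 and 1.57, and of the other genes in grey Tmem50b at 1.12 is the highest.

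Of the 3 kinase genes, Jak1 and Jak2 were higher in both JNK_KO libraries and Tyk2 was not. Jak1, whose product serves both interferon receptors, was at 20.6 and 21.4 FPKM in JNK_WT and at 35.0 FPKM in each JNK_KO library. Its spread within the groups was the narrowest of the 8 genes higher in JNK_KO, and the difference was 0.71 (SE 0.23, 95% interval 0.10 to 1.32, limma adjusted p = 0.553), or 1.64-fold, under the 0.75 that a call needs. Jak2, which serves the interferon-γ receptor, was at 17.3 and 8.84 FPKM in JNK_WT and at 67.9 and 21.6 FPKM in JNK_KO. JNK_KO replicate 1 stood far above the other 3 libraries, and JNK_KO replicate 3 was only 0.30 above JNK_WT replicate 1 on the log2 scale. The Jak2 difference of 1.56 had the largest SE of the 9 genes (0.66, 95% interval -0.20 to 3.31, limma adjusted p = 0.713), and it was 0.75 without JNK_KO replicate 1. Tyk2, which serves the type I receptor, was at 7.43 FPKM in each JNK_WT library and at 5.18 and 8.52 FPKM in JNK_KO. The groups overlapped and the difference was -0.14 (SE 0.35, 95% interval -1.07 to 0.79, limma adjusted p = 0.999), an interval that includes the size of the Jak1 difference. The gene 1700084C06Rik overlaps Tyk2 on the opposite strand, at 10.6 to 14.3 FPKM, and their reads cannot be told apart without strand.

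Of the 15 other genes tested within 1 Mb of Jak2, 3 differed between the JNK_KO lines about as Jak2 did. Picked after their values were seen, Ak3, Rcl1 and Insl6, which lie within 231 kb of the start of Jak2 on chromosome 19, were 2.86, 2.57 and 3.14 times as high in JNK_KO replicate 1 as in JNK_KO replicate 3, and Jak2 was 3.15 times as high. Cdc37l1 and Plgrkt, the genes tested on either side of this run, had ratios of 1.08 and 0.994. The JNK_WT lines also differed in this run, with replicates 1 and 2 at 25.7 and 15.4 FPKM for Ak3, 27.9 and 17.2 FPKM for Rcl1 and 12.7 and 3.61 FPKM for Insl6. Between genotypes, the 15 genes had a median difference of 0.20.

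**Figure D3:**
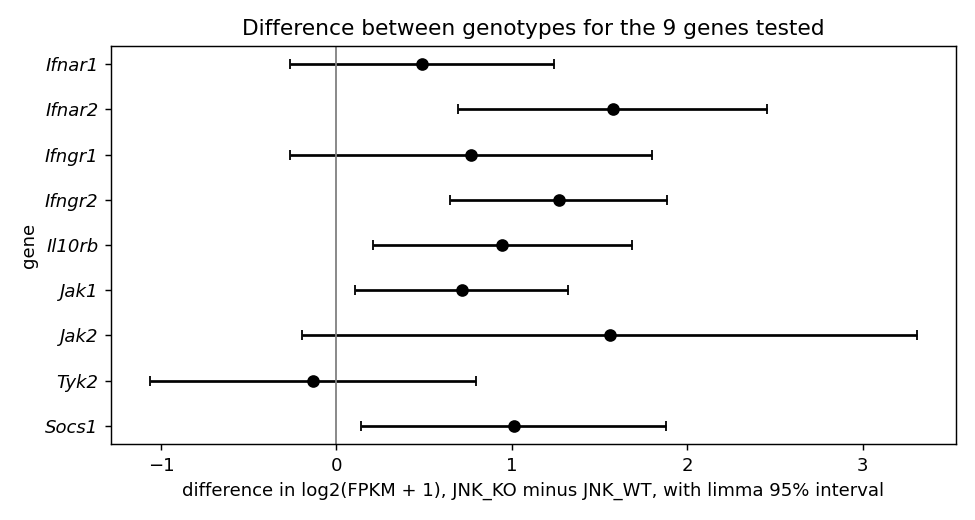
Difference in log2(FPKM + 1), JNK_KO minus JNK_WT, for the 9 genes tested, with the limma 95% interval (not adjusted for the number of genes). The intervals of Ifnar2, Ifngr2, Il10rb, Jak1 and Socs1 lie above 0, and those of Ifnar1, Ifngr1, Jak2 and Tyk2 include 0.

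Socs1, the feedback inhibitor whose promoter sequence is given above with its ISRE pair, had the lowest mean of the 9 genes in both genotypes, although Tyk2 (5.18 FPKM) was just under it in JNK_KO replicate 1. It was at 1.60 and 1.74 FPKM in JNK_WT and at 5.24 and 3.64 FPKM in JNK_KO. The groups were apart, by 0.76 on the log2 scale against 0.07 within JNK_WT and 0.43 within JNK_KO. The difference was 1.01 (SE 0.33, 95% interval 0.14 to 1.88, limma adjusted p = 0.560). At these low levels the added 1 FPKM shrinks the difference, and the ratio of the means was 2.65. The genes whose deviations from their own mean over the 4 libraries were most like those of Socs1 were Tmem241 and Ssbp2, with root mean square log2 distances of 0.0412 and 0.0489. They were not alone, as 13 of the genes tested lay within a distance of 0.1.

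Ifngr1 had the highest mean FPKM, and Tyk2 and Socs1 the lowest, in both genotypes. In neither JNK_KO library was Ifngr1 itself the highest. Jak2 (67.9 FPKM) was above it (64.3 FPKM) in JNK_KO replicate 1, and Ifnar2 (51.1 FPKM) was above it (41.5 FPKM) in JNK_KO replicate 3. In JNK_WT, Ifngr1 (mean 31.0 ± 11.2 FPKM, SD, n = 2) stood apart from Jak1 (20.97 ± 0.539). Below it Jak1, Ifnar2 (16.7 ± 6.14), Ifngr2 (15.96 ± 0.715), Ifnar1 (15.9 ± 2.51), Jak2 (13.1 ± 5.97) and Il10rb (12.2 ± 2.44) each overlapped the next in the order. Tyk2 (7.43) and Socs1 (1.67) were apart from them and from each other. In JNK_KO, Ifngr1 (52.9 ± 16.1 FPKM), Ifnar2 (50.2 ± 1.27), Jak2 (44.7 ± 32.7) and Ifngr2 (39.8 ± 0.580) overlapped neighbour by neighbour. Jak1 (35.0 ± 0.00962) stood between these and the pair Il10rb (24.3 ± 1.24) and Ifnar1 (22.8 ± 3.67), apart from its neighbours in the order, although its values fell inside the range of Jak2. Tyk2 (6.85 ± 2.36) and Socs1 (4.44 ± 1.13) overlapped. The Jak1 to Tyk2 ratio was 2.77 and 2.87 in JNK_WT and 6.76 and 4.11 in JNK_KO.

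Genes for chains of receptor complexes outside the interferon family that use the same kinases were also more often higher than lower. The kinase may be carried by another chain of the complex. Of 23 such genes, 13 were tested, 0 were called, 8 had both JNK_KO libraries above and 2 both below JNK_WT, and the median difference was 0.91. Of all genes tested, 18.3% were above and 16.7% below in this way. Il6st, the gp130 chain shared by the interleukin-6 family, was at 46.3 and 27.9 FPKM in JNK_WT and at 160 and 115 FPKM in JNK_KO, a difference of 1.89. Il15ra, the interleukin-15 receptor α chain, was at 1.97 and 1.96 against 7.06 and 6.58 FPKM (1.40), and Il11ra1, the interleukin-11 receptor chain, at 2.41 and 3.80 against 7.41 and 7.89 FPKM (1.10). Il2rg, the common γ chain, had the largest difference of the list (2.84, and 1.76 without JNK_KO replicate 3) but varied from 5.76 to 29.1 FPKM between the JNK_KO libraries. Osmr, a partner of gp130, was at 1.85 FPKM in JNK_WT replicate 1 and between 16.2 and 22.5 FPKM in the other 3 libraries. The 2 lower genes were Csf2ra and Crlf2, at differences of -0.88 and -0.60.

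Downstream of the kinases, the list of STATs, Irf9 and Jak3 held 8 tested genes, of which 0 were called, with a median difference of 0.67. Stat2 (4.76 and 2.23 FPKM in JNK_WT against 11.8 and 14.4 FPKM in JNK_KO, a difference of 1.70) and Irf9 (8.63 and 4.01 against 19.6 and 21.9 FPKM, 1.64) had both JNK_KO libraries above both JNK_WT libraries. Stat3 was at 29.1 FPKM in JNK_WT replicate 1 and between 86.6 and 122 FPKM in the other 3 libraries. Of 15 interferon-stimulated genes, 14 were tested and 0 called. All 14 had both JNK_KO libraries above both JNK_WT libraries, as had 18.3% of all genes tested. Their median difference of 2.59 was larger than the difference of any of the 9 genes. Their summed level was 189 and 38.8 FPKM in JNK_WT and 969 and 625 FPKM in JNK_KO. Ciita, which interferon-γ induces and which controls class II antigen presentation genes, was under 0.1 FPKM in all 4 libraries.

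The other negative regulators had no shared direction. Of 17 genes, all tested, 0 were called, 2 were higher and 2 lower in both JNK_KO libraries, and the median difference was 0.07. Of all genes tested, 18.3% were higher and 16.7% lower in this way. Socs3, the inhibitor of gp130 signalling, was at 5.82 and 23.6 FPKM in JNK_WT and at 22.2 and 36.5 FPKM in JNK_KO, so the groups overlapped. Usp18, an interferon-induced protein that blocks IFNAR2, was at 13.5 and 0.386 FPKM in JNK_WT and at 28.3 and 23.1 FPKM in JNK_KO, a difference of 2.57 with an SE of 1.17 (0.88 without JNK_WT replicate 2). Ptpn6, which encodes the phosphatase SHP-1, was at 155 and 42.6 FPKM in JNK_WT and at 27.7 and 26.7 FPKM in JNK_KO, a difference of -1.55 (-0.63 without JNK_WT replicate 1).

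Of 10 genes for the factors that assemble on the Ifnb1 enhancer, all were tested and 0 were called, with a median difference of -0.01. In both JNK_KO libraries 3 were higher and 1 lower, beside 18.3% and 16.7% of all genes tested. Irf7, an interferon-induced factor that amplifies type I interferon production, stood out at 6.99 and 2.29 FPKM in JNK_WT and 108 and 72.9 FPKM in JNK_KO, a difference of 4.13 (limma adjusted p = 0.186). Jun, whose product JNK phosphorylates, was at 13.9 and 14.6 FPKM in JNK_WT and at 26.6 and 16.05 FPKM in JNK_KO, a difference of 0.51 (0.16 without JNK_KO replicate 1). Irf1 (-0.30) and Hmga1 (-0.86, and -0.37 without JNK_WT replicate 1) had overlapping groups.

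**Figure D4:**
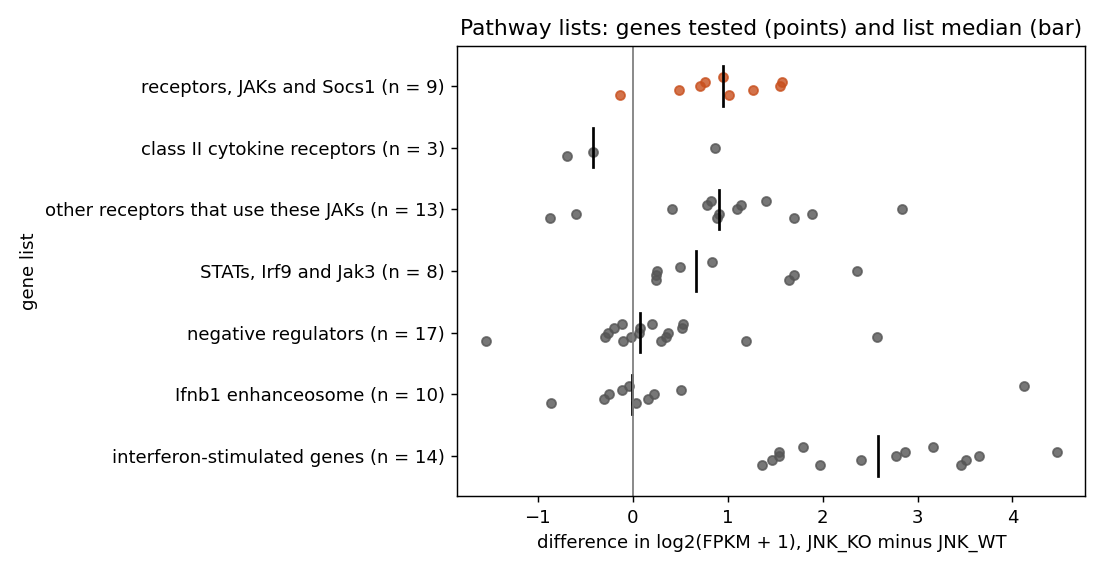
Difference in log2(FPKM + 1), JNK_KO minus JNK_WT, for each gene tested (points) in the set of receptors, kinases and Socs1 (orange) and in 6 pathway lists (grey), with the median of each as a black bar. The interferon-stimulated genes have a median of 2.59 and no gene below 0, and the negative regulators and enhancer factors have medians near 0.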

How the data were processed

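RNA of 4 tumor cell lines was sequenced by the authors as single-end reads, trimmed with Trimmomatic, sampled to similar read numbers, and aligned to GRCm38 with TopHat2 2.0.14 and Bowtie2. They computed the deposited FPKM values with Cufflinks 2.2.1, and the annotation is not given in the sources used here. FPKM hides depth, so levels near 0 carry an unknown counting error. Of 38741 rows, 27 with symbols turned into dates and 1 without a value were dropped. Genes at 1 FPKM or more in at least 2 libraries (12998) were tested with limma 3.58.1 (R 4.3.3), with an intensity trend, on log2(FPKM + 1), with Benjamini-Hochberg adjustment over all of them. The authors' Cuffdiff test needs alignments and was not used. With 2 libraries per group an exact permutation test cannot give a two-sided p below 0.333. The script was tested on simulated data. Positions are from GENCODE on GRCm38. Neighbours exclude the 10 genes.

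The 10 genes and all lists were chosen with earlier results of these data known. Named from each list were at most the 4 largest absolute differences and genes with an unadjusted p under 0.05, as well as Mapk8 and Mapk9 and the 3 genes most like Socs1, of which 1 is not reported here. From the interferon-stimulated list only counts and sums are given. Ifng, Ifne, Ifnz, Ciita, Csf2ra, Crlf2, Ptprc, Col1a1, Col3a1, Lum and the genes beside Jak2 and Ifnar2 were named after their values were seen.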

Additional observations from a re-analysis of the deposited data

How the results depend on the processing

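The differences of the 8 genes higher in JNK_KO kept their sign under all alternatives in which they were tested (Socs1 failed the filter of a mean of 5 FPKM; pseudocounts of 0.1 and 0.5, other filters, 3 scalings, limma without the trend or with robust variance, and leaving out each library), and none of the 9 was called under any of them, with adjusted limma p from 0.281 to 1. Tyk2 changed sign to 0.18 without JNK_KO replicate 1, its differences over the left-out libraries running from -0.45 to 0.18. Leaving out 1 library assumes that the lone library varies like the other group, and it gave 0.75 to 2.36 for Jak2, 0.40 to 1.13 for Ifngr1, 0.33 to 0.65 for Ifnar1 and 1.21 to 1.93 for Ifnar2. The count of the 9 with an unadjusted p under 0.05 was 5 as reported, 4 with quantile scaling or the filter of 5 FPKM, 2 without JNK_WT replicate 2 or JNK_KO replicate 1, and 3 without either other library. Only Ifnar2 and Ifngr2 passed it under every alternative. Over all genes, the count of called genes was 10 with a pseudocount of 0.1, 14 with 0.5, 14 without the trend and 25 at an adjusted p threshold of 0.1, and 0 as reported. The cause was not tested. Sign changes among the other named genes came with a left-out JNK_WT library: the difference ran from -1.53 to 0.70 for Il20rb, from -0.11 to 1.79 for Stat3 and from -0.63 to 0.024 for Irf1. No paired analysis was made, because the labels pair no JNK_WT line with a JNK_KO line. With 2 lines per genotype, and depth placed only in relative terms, the difference of none of the 9 genes passed the adjusted test. The unadjusted intervals of Ifnar1, Ifngr1, Jak2 and Tyk2 also included 0, and Ifnb1 rests on a few reads.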
